A study of Mus musculus with 16 samples.

Results

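The integrated stress response and the unfolded protein response were followed through 10 genes, Atf4, Ddit3, Atf3, Trib3, Chac1, Asns, Ppp1r15a, Ddit4, Xbp1 and Hspa5, chosen by name from 45777 listed genes. All 10 were counted in every tumor and were among the 16209 genes tested. B16F10 cells, a melanoma line of C57BL/6 origin, had been grown under the skin of the abdominal flank in lean wild-type C57BL/6J mice or in obese C57BL/6J-ob/ob mice, which lack functional leptin in all tissues because of a nonsense mutation in Lep. The hosts were 6 weeks old at injection of the cells. Tumors were taken before therapy or a day after a course of repeated intraperitoneal injections of etoposide (ETS), a topoisomerase II inhibitor that leaves breaks in DNA, which gave 4 groups of 4 tumors each. All 16 tumors came from a single cell line, and the labels give no second line, sex or litter. The labels call the groups without ETS ctrl, and the paper describes their tumors as taken before chemotherapy. ETS and the days of growth during its course therefore cannot be told apart. The effect of ETS below stands for tumors after ETS against tumors before therapy.

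In the integrated stress response, kinases that sense amino acid shortage, ER stress, heme lack or double-stranded RNA phosphorylate the translation factor eIF2. Most protein synthesis then slows, while Atf4 mRNA is translated more, and the ATF4 protein switches on genes for amino acid synthesis and uptake, for tRNA charging and, with its partners, for cell death. The unfolded protein response shares the PERK kinase with it and adds the sensors IRE1, which splices Xbp1 mRNA, and ATF6, both of which raise chaperones of the ER such as Hspa5. In tumors these pathways are known to respond to poor supply of nutrients and oxygen. Gene counts show mRNA, and neither eIF2 phosphorylation, ATF4 translation nor Xbp1 splicing was measured.

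Total counts were between 47199949 and 61655287 per tumor. Whole tumors hold host cells, and fewer cells of a type and less RNA per cell cannot be told apart in these libraries. Melanocyte markers were high in all tumors, with the 8 of them summing to between 11260 and 27990 CPM (counts scaled by library size). Mitochondrially encoded RNA took 4.18% to 6.09% of the counts in lean tumors before therapy and 9.85% to 14.5% after ETS. In obese tumors it took 4.11% to 5.58% before therapy and 4.75% to 11.7% after ETS. Macrophage markers (8 genes) summed to 399 to 1289 CPM in lean tumors before therapy and 49.5 to 418 after ETS, against 40.2 to 253 and 351 to 1032 in obese tumors. Fibroblast markers (6 genes) summed to 514 to 2175 CPM and 88.7 to 584.5 CPM in lean tumors before and after ETS, and to 85.9 to 592 and 591 to 5646 CPM in obese tumors. T cell markers (6 genes) summed to 17.8 to 33.8 CPM in lean tumors before therapy and to at most 1.52 CPM in any tumor of the other groups, and neutrophil markers to at most 30.1 CPM in any tumor, and no gene of either list was counted in all tumors. The part of these cell types in the levels of the 10 genes was not tested. Lep had 0 to 18 counts in lean tumors and 6 to 537 in obese tumors, and since the ob mutation leaves a transcript, these counts do not check the genotype.

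Obese tumor 4 after ETS stood apart from the other 3 of its group. Values without it are given where it changed a call or a count of the 10 genes, and for part of the longer lists. The 10 genes together summed to 3963 CPM in it and to 1265, 1328 and 1444 CPM in the others. Its fibroblast markers summed to 5646 CPM against 591 to 1802 in the others, and its macrophage markers to 1032 CPM against 351 to 667. Its melanocyte markers summed to 11260 CPM against 14550 to 26650, its 10 hypoxia targets to 11740 CPM against 7801 to 8845, and mitochondrially encoded RNA took 4.75% of its counts against 6.72% to 11.7%. The part of these values in its stress gene levels was not tested.

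The start of a gene is where stress-responsive factors are known to bind, and the RefSeq promoter windows of the 10 genes (GRCm38.p6, the same assembly as mm10) were searched on both strands for letters of known elements. The C/EBP-ATF element TGATGNAA, the type of site that ATF4 uses with a C/EBP partner, was in 4 of 10 windows, namely those of Atf3, Trib3, Chac1 and Asns, and in 3.97% of all 32851 windows of the same length. The ER stress element, which joins CCAAT to CCACG over a spacer of 9 bases, was in the window of Hspa5 and in 0.119% of all windows. The cAMP response element TGACGTCA was in that of Ppp1r15a and in 1.79% of all windows, and the unfolded protein response element TGACGTGG, which shares its first 6 letters with it, was in 0 of 10 and in 0.676%. A match is a string of letters and not a measured binding site. The 250 bases before the start are shown for 4 genes whose element lies there, each on the strand of its gene with the element in capitals. They lie at chr1:191183334-191183583 (minus strand) for Atf3, chr2:119350992-119351241 (plus) for Chac1, chr6:7693210-7693459 (minus) for Asns and chr2:34771840-34772089 (plus) for Hspa5.
Atf3: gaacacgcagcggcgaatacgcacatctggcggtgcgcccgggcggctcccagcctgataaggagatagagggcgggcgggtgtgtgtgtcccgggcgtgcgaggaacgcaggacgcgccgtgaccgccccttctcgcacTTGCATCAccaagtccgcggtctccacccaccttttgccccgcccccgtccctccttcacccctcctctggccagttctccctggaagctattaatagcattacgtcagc
Chac1: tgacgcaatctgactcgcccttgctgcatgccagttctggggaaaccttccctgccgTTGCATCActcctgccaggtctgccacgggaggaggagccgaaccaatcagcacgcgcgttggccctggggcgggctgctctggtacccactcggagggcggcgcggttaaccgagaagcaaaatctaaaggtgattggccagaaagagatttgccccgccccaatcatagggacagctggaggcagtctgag
Asns: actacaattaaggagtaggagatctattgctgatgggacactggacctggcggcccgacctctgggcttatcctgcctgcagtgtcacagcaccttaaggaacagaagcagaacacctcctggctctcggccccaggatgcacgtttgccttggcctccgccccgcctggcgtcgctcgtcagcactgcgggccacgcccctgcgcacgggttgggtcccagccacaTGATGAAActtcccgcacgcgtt
Hspa5: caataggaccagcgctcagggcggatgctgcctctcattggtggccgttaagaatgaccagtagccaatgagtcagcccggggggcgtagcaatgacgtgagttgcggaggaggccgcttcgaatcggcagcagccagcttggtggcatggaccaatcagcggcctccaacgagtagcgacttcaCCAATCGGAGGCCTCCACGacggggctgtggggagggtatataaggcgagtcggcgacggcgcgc

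The first comparison asked how the pathway changed after ETS in lean tumors. Of the 10 genes, 4 fell and 1 rose. Atf4, Atf3, Chac1 and Asns were lower, Chac1 by 3.43-fold and Atf3 by 3.63-fold, whereas Ddit4 was 1.70-fold higher. A gene was called where its p-value from edgeR's quasi-likelihood test, adjusted over all tested genes, was under 0.05. By this rule 43.8% of the 16209 genes were called here in either direction, so a count of 5 of 10 stands close to the background. By direction, 22.8% of all tested genes fell and 21% rose, whereas only 1 of the 10 estimates was above 0. The median log2 fold change was -0.75 over the 10 genes and -0.015 over all tested genes. The call count was the least firm part of this: it was 3 when lean tumor 1 or 2 before therapy or any lean tumor after ETS was left out, and 8 without obese tumor 4 after ETS, which is in neither group compared but is part of the shared fit.

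After ETS in obese tumors, 3 of the 10 genes fell and none rose. These were Atf4 by 2.46-fold, Chac1 by 2.396-fold and Asns by 1.83-fold, where 40.2% of all tested genes were called. The median log2 fold change was -0.72 over the 10 genes and 0.0066 over all genes. Without obese tumor 4 after ETS, all 10 genes fell, with a median of -1.30, and 40.1% of all genes were called. Leaving out obese tumor 1 after ETS instead left 1 call, that of Asns.

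Whether the change after ETS differed between the 2 hosts was tested as the difference of the effects, lean minus obese, for which 16.4% of all genes were called. Among the 10 genes only Ddit4 was called, at 1.51 ± 0.41 on the log2 scale (SE, adjusted p = 0.0197). It was also the only one of the 10 called without obese tumor 4 after ETS (1.92 ± 0.31, adjusted p = 0.000821), and Atf3 joined it when obese tumor 2 after ETS was left out (-2.00, adjusted p = 0.0419). For Atf4 the difference was -0.19 with a 95% confidence interval from -1.32 to 0.94, for Chac1 -0.52 (-1.73 to 0.70) and for Asns 0.30 (-0.32 to 0.93), and these intervals leave room for a difference in either direction.

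**Figure D1:**
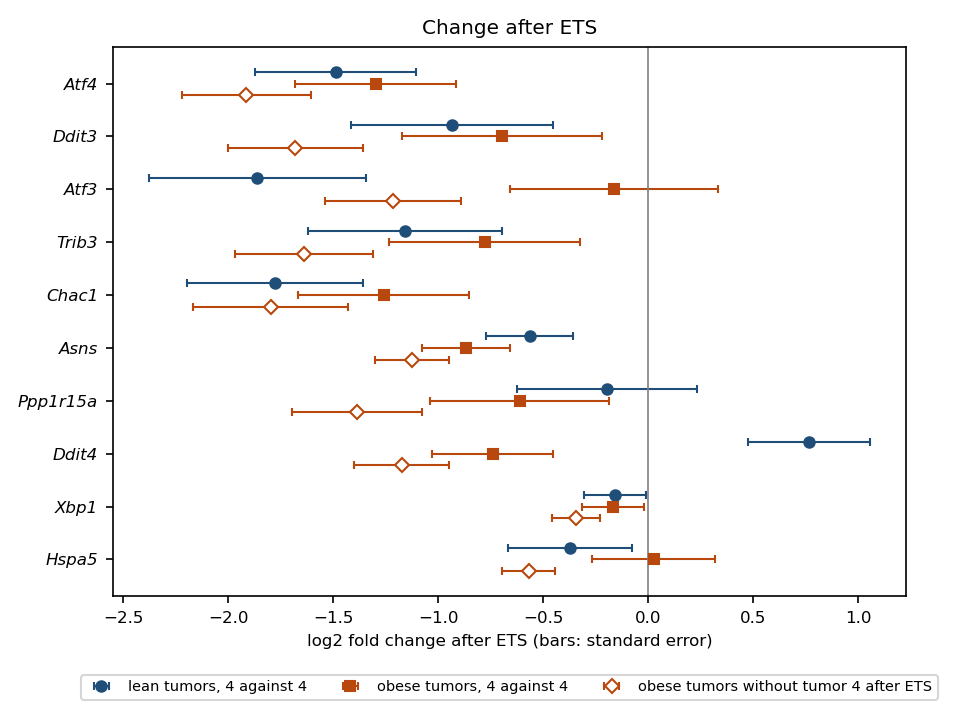
Log2 fold change of each gene after ETS (horizontal axis, points with standard error bars) in lean tumors (circles), in obese tumors (squares) and in obese tumors with tumor 4 after ETS left out (open diamonds). Ddit4 lies at 0.76 in lean tumors and at -0.74 in obese tumors, whereas Atf4, Chac1 and Asns lie below 0 in both, and all 10 open diamonds lie below 0.

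Before therapy, all 10 genes had higher estimates in obese than in lean tumors, and 3 of them passed the test. Ddit4 was higher by 1.61 ± 0.29 on the log2 scale, Ppp1r15a by 1.59 ± 0.44 and Asns by 0.59 ± 0.21, where 26.4% of all genes were called in either direction. The median was 0.75 over the 10 genes and 0.019 over all genes. Without obese tumor 4 after ETS, Ddit3 and Trib3 were called as well, and without obese tumor 3 before therapy only Ddit4 was.

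After ETS, 1 of the 10 genes was called between obese and lean tumors, with 5.58% of all genes called. This was Atf3, which was 4.32-fold higher in obese tumors. Without obese tumor 4 after ETS, 0 of the 10 were called, against 1.5% of all genes, and the median over the 10 genes went from 0.999 to 0.30. The count was also 0 when any lean tumor after ETS was left out, 4 without obese tumor 2 after ETS, and 2 without obese tumor 3 after ETS or lean tumor 3 before therapy. The lean and obese effects of ETS and the 2 host comparisons share tumors, so their values are given side by side and not as separate evidence.

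**Figure D2:**
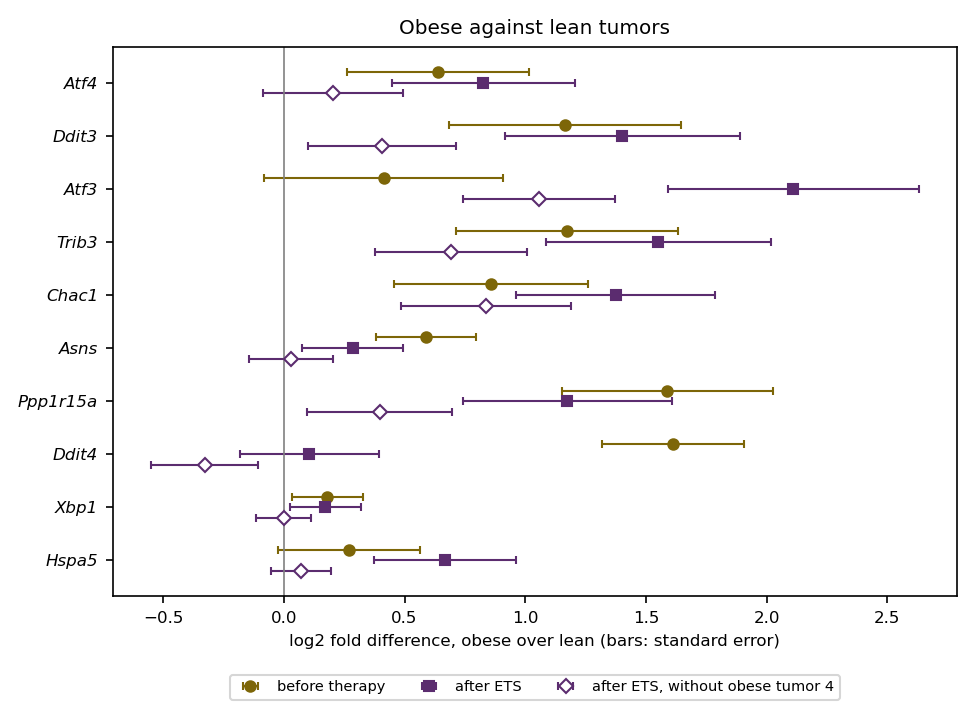
Log2 difference of each gene between obese and lean tumors (horizontal axis, obese over lean, points with standard error bars) before therapy (circles), after ETS (squares) and after ETS with obese tumor 4 left out (open diamonds). All circles lie above 0, with Ddit4 at 1.61 and Ppp1r15a at 1.59, and the open diamonds lie between -0.33 and 1.06.

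The scale of the counts matters for these directions. On the authors' TPM values, which are per length and are not rescaled by TMM, the median of all genes shifted by -0.35 in lean tumors after ETS, by -0.26 in the difference of the effects, by -0.13 between obese and lean tumors before therapy and by 0.13 after ETS. Among all called genes the share that was higher went from 48.0% to 15.7% in lean tumors, from 38.7% to 9.24% in the difference, from 51.0% to 29.0% before therapy and from 58.7% to 83.8% after ETS. For the 10 genes the falls of Atf4, Atf3, Chac1 and Asns in lean tumors and of Atf4, Chac1 and Asns in obese tumors were called on TPM as well. The rise of Ddit4 in lean tumors was not (0.38, adjusted p = 0.331, or 0.73 above the shifted median). Since the lean shift is itself downward, a fall called on TPM is weaker support there. Relative to that shift the lean falls were -1.55 for Atf4, -1.69 for Atf3, -1.53 for Chac1 and -0.55 for Asns. Falls called after ETS on TPM but not on counts were those of Ddit3, Trib3 and Xbp1 in lean tumors and of Ddit4 in obese tumors.

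Compared per length, as TPM, the genes differed widely in level. In lean tumors before therapy Hspa5 was at 882 ± 59.7 TPM (SD, n = 4), Atf4 at 305 ± 54.9, Asns at 148 ± 28.8, Xbp1 at 102 ± 8.79, Ddit4 at 89.0 ± 11.1, Ddit3 at 78.6 ± 18.6, Trib3 at 55.6 ± 20.2, Chac1 at 30.4 ± 13.01, Atf3 at 27.6 ± 6.72 and Ppp1r15a at 19.4 ± 2.97. The tumors of Hspa5, of Atf4 and of Asns each lay apart from those of the next gene in this order, whereas those of each later gene overlapped with those of its neighbour. All levels below are CPM, listed for tumors 1 to 4 of a group, and are compared only within a gene.

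**Figure D3:**
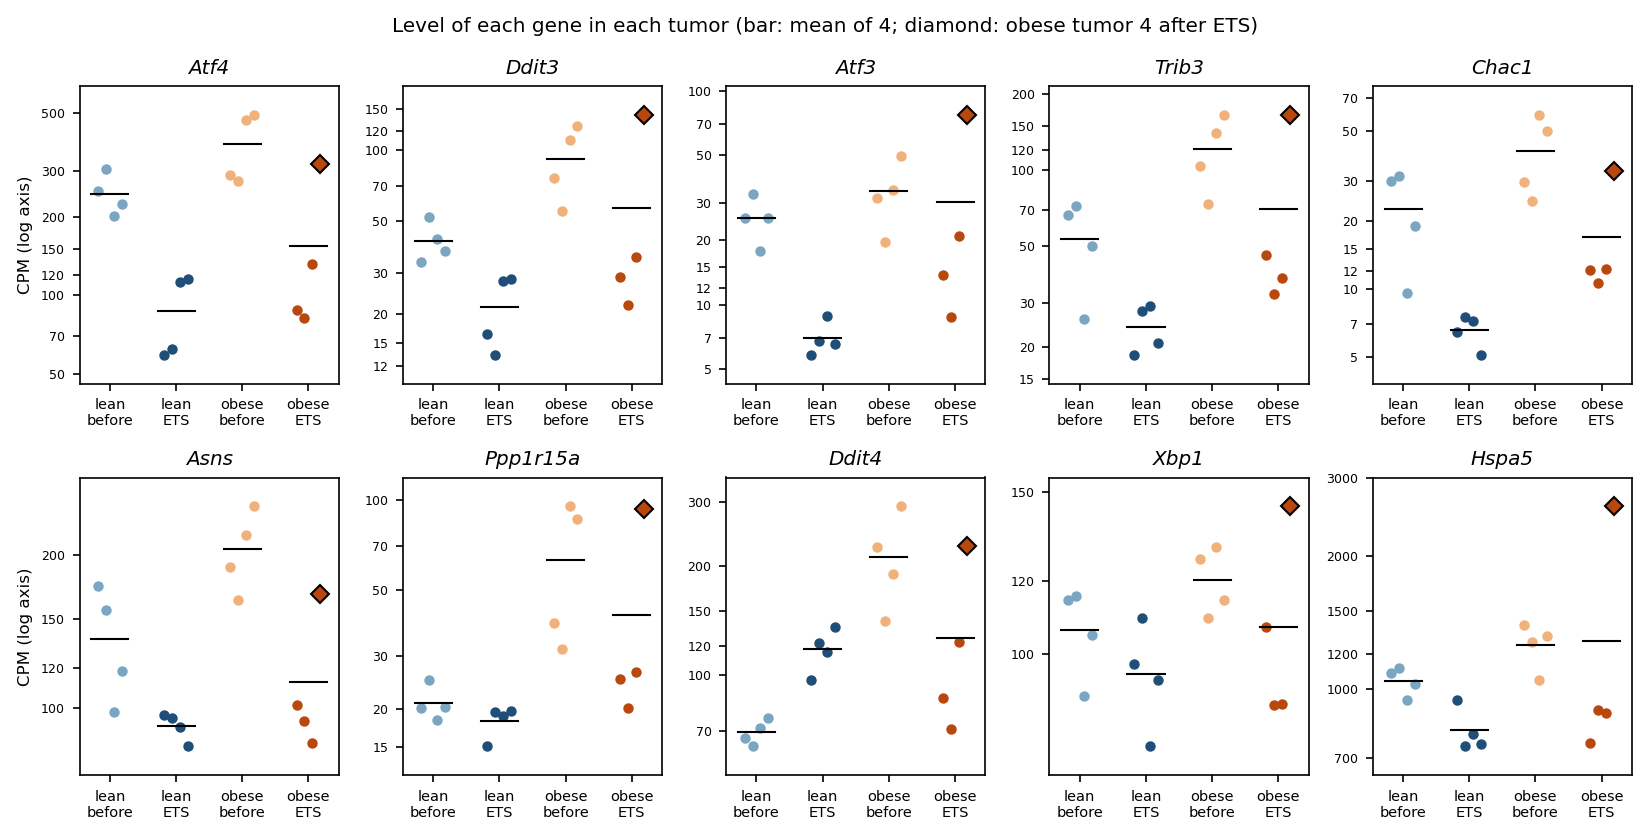
Level of each gene in each of the 16 tumors (vertical log axis, CPM; bars, mean of 4 tumors), with obese tumor 4 after ETS drawn as a diamond. Atf4 of lean tumors lies between 201 and 305 before therapy and between 59.3 and 116 after ETS, and the diamond lies above the other 3 obese tumors after ETS in all 10 panels.

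Atf4 (chr15:80255184-80257545, plus strand) encodes the transcription factor at the centre of the integrated stress response. In lean tumors it was at 252, 305, 201 and 224 CPM before therapy and at 59.3, 62.5, 112 and 116 CPM after ETS. In obese tumors it was at 289, 275, 469 and 492 CPM before therapy and at 88.1, 81.8, 132 and 318 CPM after ETS. Every lean tumor after ETS lay below every lean tumor before therapy, and in obese tumors only tumor 4 after ETS reached into the range before therapy. For lean tumors the log2 fold change was -1.49 ± 0.38 (adjusted p = 0.00620), and for obese tumors it was -1.30 ± 0.38 (adjusted p = 0.0144), or -1.91 ± 0.31 without tumor 4. The obese call was lost without obese tumor 1 after ETS (adjusted p = 0.0541). The host difference was 0.64 ± 0.38 before therapy and 0.83 ± 0.38 after ETS, and neither passed the test (adjusted p = 0.234 and 0.189).

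Atf3 (chr1:191170296-191183333, minus strand), a stress-induced factor of the same family that ATF4 and p53 are known to induce, was at 25.5, 32.9, 17.8 and 25.6 CPM in lean tumors before therapy. After ETS it was at 5.85, 6.75, 8.84 and 6.57 CPM, with no overlap and a log2 fold change of -1.86 ± 0.52 (adjusted p = 0.00936). Obese tumors were at 31.6, 19.7, 34.5 and 49.8 CPM before therapy and at 13.8, 8.75, 20.9 and 77.4 CPM after ETS, the last being the highest of all 16 tumors. Their log2 fold change was -0.17 ± 0.50 with tumor 4 (adjusted p = 0.821) and -1.22 ± 0.32 without it (adjusted p = 0.00926). After ETS the host difference was 2.11 ± 0.52 (adjusted p = 0.0337), but 1.06 ± 0.32 without obese tumor 4 (adjusted p = 0.109), and the call was also lost without any single lean tumor after ETS (adjusted p = 0.0687 to 0.0864).

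Ddit3 (chr10:127290793-127296291, plus strand) encodes CHOP, the factor best known for death under lasting ER stress. Lean tumors were at 33.2, 51.6, 41.9 and 37.2 CPM before therapy and at 16.5, 13.4, 27.7 and 28.2 CPM after ETS. All 4 lay lower after ETS, yet the log2 fold change of -0.93 ± 0.48 did not pass the test (adjusted p = 0.127), and it did without obese tumor 4 after ETS (adjusted p = 0.0146). Obese tumors were at 75.7, 55.1, 111 and 126 CPM before therapy and at 28.7, 21.8, 34.9 and 141 CPM after ETS. All obese tumors before therapy lay above all lean ones, a difference of 1.16 ± 0.48 (adjusted p = 0.0877) that passed without obese tumor 4 after ETS (1.14 ± 0.29, adjusted p = 0.00813). The obese change after ETS was -0.70 ± 0.48 (adjusted p = 0.259), and -1.68 ± 0.32 without tumor 4 (adjusted p = 0.00132). Ddit3 overlaps Mars, a tRNA synthetase gene, on the other strand, and whether reads were counted by strand is not given in the sources used here.

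Trib3 (chr2:152337425-152344060, minus strand), a pseudokinase induced by ATF4 and CHOP that restrains both ATF4 and Akt signalling, was at 66.6, 72.0, 25.8 and 50.3 CPM in lean tumors before therapy. After ETS it was at 18.6, 27.8, 29.0 and 20.8 CPM, where lean tumor 3 before therapy lay within the range after ETS. The change of -1.16 ± 0.46 missed the threshold (adjusted p = 0.0536), and passed without lean tumor 3 before therapy (-1.39, adjusted p = 0.0306). It also passed without obese tumor 2, 3 or 4 after ETS (adjusted p = 0.0417, 0.0484 and 0.00515). In obese tumors it was at 104, 73.6, 140.3 and 166 CPM before therapy and at 46.3, 32.3, 37.6 and 166 CPM after ETS. Obese tumors were higher before therapy in 4 of 4 against every lean tumor, by 1.17 ± 0.46 (adjusted p = 0.0723), which passed without obese tumor 4 after ETS (1.15 ± 0.29, adjusted p = 0.00916). Their change after ETS was -0.78 ± 0.46 (adjusted p = 0.186), and -1.64 ± 0.33 without tumor 4 (adjusted p = 0.00182). After ETS, too, all obese tumors lay above all lean ones, by 1.55 ± 0.47 (adjusted p = 0.0617 by edgeR's quasi-likelihood test). Without obese tumor 4 this difference was 0.69 ± 0.31 (adjusted p = 0.273 by the same test).

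Chac1 (chr2:119351242-119354326, plus strand), an enzyme that degrades glutathione and a sensitive target of ATF4, was at 30.1, 31.5, 9.61 and 19.0 CPM in lean tumors before therapy and at 6.47, 7.51, 7.21 and 5.11 CPM after ETS. The groups did not overlap and differed by -1.78 ± 0.42 (adjusted p = 0.00346). In obese tumors it was at 29.8, 24.6, 59.0 and 49.9 CPM before therapy and at 12.2, 10.6, 12.2 and 33.1 CPM after ETS. The change was -1.26 ± 0.41 (adjusted p = 0.0229) and -1.80 ± 0.37 without tumor 4, so that the estimate came close to that of lean tumors. The obese call was lost without obese tumor 3 or 4 before therapy or obese tumor 1, 2 or 3 after ETS (adjusted p = 0.0581 to 0.0786). All obese tumors after ETS lay above all lean tumors after ETS, by 1.37 ± 0.41 (adjusted p = 0.0617), and by 0.84 ± 0.35 without tumor 4 (adjusted p = 0.235).

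Asns (chr6:7675165-7693209, minus strand) makes asparagine from aspartate and glutamine. It was at 173, 156, 98.2 and 119 CPM in lean tumors before therapy and at 97.1, 95.8, 91.9 and 84.2 CPM after ETS, a change of -0.57 ± 0.21 (adjusted p = 0.0379). The highest lean tumor after ETS lay just under the lowest before therapy. Obese tumors were at 189, 163, 219 and 249 CPM before therapy and at 102, 94.5, 85.4 and 168 CPM after ETS. Their change of -0.87 ± 0.21 (adjusted p = 0.00453) was called with every single tumor left out, and was -1.13 ± 0.18 without tumor 4. The lean call was lost without lean tumor 1 or 2 before therapy or any lean tumor after ETS (adjusted p = 0.0538 to 0.113). Before therapy Asns was higher in obese tumors by 0.59 ± 0.21 (adjusted p = 0.0477), with overlapping groups, and this call was lost in 12 of 16 fits that each left out 1 tumor, those without lean tumor 2, 3 or 4 before therapy, without any lean tumor after ETS, without obese tumor 1, 3 or 4 before therapy and without obese tumor 1 or 2 after ETS (adjusted p = 0.0506 to 0.143). It was also lost with DESeq2 size factors (adjusted p = 0.0504), without the exclusion of low counts (0.0769), with only the groups compared (0.0548) and on TPM (0.105).

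Ppp1r15a (chr7:45522917-45526268, minus strand) encodes GADD34, which brings a phosphatase to eIF2 and so ends the response. In lean tumors no change passed the test, with 20.2, 25.0, 18.3 and 20.3 CPM before therapy and 15.0, 19.5, 18.9 and 19.7 CPM after ETS (-0.20 ± 0.43, adjusted p = 0.734). Obese tumors were at 38.9, 31.8, 95.2 and 86.3 CPM before therapy, all above every lean tumor, and the difference of 1.59 ± 0.44 passed the test (adjusted p = 0.0141). Tumors 3 and 4 carried most of it, and without obese tumor 3 before therapy it was 1.32 (adjusted p = 0.0516). After ETS obese tumors were at 25.2, 20.2, 26.6 and 93.0 CPM, a change of -0.61 ± 0.43 (adjusted p = 0.268), and of -1.39 ± 0.31 without tumor 4 (adjusted p = 0.00346). All obese tumors after ETS also lay above all lean tumors after ETS, by 1.17 ± 0.43 (adjusted p = 0.110 by edgeR's quasi-likelihood test). Without obese tumor 4 this difference was 0.40 ± 0.30 (adjusted p = 0.538 by the same test). The gene overlaps Tulp2 on the other strand.

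Ddit4 (chr10:59949675-59951770, minus strand) encodes REDD1, an inhibitor of mTORC1 known to be induced by ATF4, by hypoxia and by DNA damage. Lean tumors were at 67.0, 63.7, 71.3 and 76.0 CPM before therapy and at 97.0, 122.8, 116 and 136 CPM after ETS. Each lean tumor after ETS lay above each one before therapy, at a log2 fold change of 0.76 ± 0.29 (adjusted p = 0.0424). In obese tumors the order was turned, with 225, 141, 191 and 292 CPM before therapy and 86.2, 70.9, 123.5 and 227 CPM after ETS. Here 3 of 4 tumors after ETS lay below the lowest tumor before therapy and the change was -0.74 ± 0.29 (adjusted p = 0.0514), and -1.17 ± 0.23 without tumor 4 (adjusted p = 0.00141). It passed without obese tumor 2 before therapy too (-0.90, adjusted p = 0.0273).

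Ddit4 was therefore the only one of the 10 genes for which the effects of ETS were called different between hosts (95% confidence interval of the difference 0.64 to 2.37). This call held with each of the 16 tumors left out (1.31 to 1.92, adjusted p at most 0.0459), and on TPM the difference was 1.31 (adjusted p = 0.0649). The lean rise by itself was less firm, since leaving out any lean tumor, obese tumor 1 or 3 before therapy or obese tumor 3 after ETS took its adjusted p to between 0.0504 and 0.0925. The largest contrast was before therapy, where all obese tumors lay above all lean tumors by 1.61 ± 0.29 (adjusted p = 0.000998), and this call held with each tumor left out. After ETS the host difference was 0.11 ± 0.29 (adjusted p = 0.855), and -0.33 ± 0.22 without obese tumor 4 (adjusted p = 0.483).

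Because Ddit4 is also known to respond to low oxygen and to DNA damage, genes of both responses were set beside it. Of 10 hypoxia targets, among them Vegfa, Car9 and Bnip3, 7 were higher in obese than in lean tumors before therapy and 0 lower, 5 rose and 0 fell after ETS in lean tumors, and 0 passed the test after ETS in obese tumors, where 26.4%, 43.8% and 40.2% of all genes were called. With that host's tumor 4 after ETS left out, the counts were 10 higher before therapy, 5 rising in lean tumors and 1 falling in obese tumors. Their summed level was 5241 to 7680 CPM in lean tumors before therapy and 8623 to 9568 after ETS. In obese tumors it was 8392 to 11280 CPM before therapy and 7801 to 11740 after ETS, where the highest was tumor 4 and the others reached at most 8845. Of 10 p53 targets, 10 rose after ETS in lean tumors and 9 in obese tumors (9 in each without obese tumor 4 after ETS), with sums of 412 to 585 CPM and 2868 to 3530 in lean tumors before and after, and 1190 to 1271 and 2587 to 3110 in obese tumors. Before therapy 6 of the p53 targets were higher in obese than in lean tumors and 0 lower. The difference of the effects was called for 5 p53 targets and 2 hypoxia targets, all positive, against 16.4% of all genes. Without obese tumor 4 after ETS it was called for 5 of each list. The part of either list in the levels of Ddit4 was not tested.

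Xbp1 (chr11:5520641-5525993, plus strand), the target of IRE1 splicing, had the smallest ratio of its highest to its lowest level among the 10 genes over the 16 tumors, at 1.82, against 2.96 for Asns and 13.2 for Atf3, the largest. It lay between 90.0 and 116 CPM in lean tumors before therapy, between 79.5 and 109.6 after ETS, between 109 and 131 in obese tumors before therapy and between 88.2 and 145 after ETS. On counts no comparison passed the test with all 16 tumors, and the confidence interval of the change was -0.47 to 0.15 in lean tumors and -0.48 to 0.14 in obese tumors. On TPM the lean change was called (-0.53, adjusted p = 0.00696 by limma), and it was -0.18 relative to the shift of all genes. Without obese tumor 4 after ETS the obese change was -0.34 ± 0.11 (adjusted p = 0.0276).

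Hspa5 (chr2:34772090-34776529, plus strand) encodes BiP, the main Hsp70 chaperone of the ER and the classic readout of ER stress. In lean tumors it was at 1091, 1118, 947 and 1028 CPM before therapy and at 947, 743, 793 and 749.9 CPM after ETS. Obese tumors were at 1399.6, 1279, 1046 and 1321 CPM before therapy and at 755, 899, 883 and 2595 CPM after ETS. Tumor 4 alone was about 2.89 times as high as the next obese tumor after ETS, and it was the highest of all 16. The lean change was -0.37 ± 0.29 (adjusted p = 0.318) and the obese change 0.02 ± 0.29 (adjusted p = 0.960). Without that tumor the standard errors shrank and both were called, the lean change at -0.40 ± 0.12 (adjusted p = 0.0124) and the obese change at -0.57 ± 0.13 (adjusted p = 0.00327).

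Beside the 10 genes, 109 further genes of the pathway were followed in 4 lists, of which 106 were tested. Fgf21, Stc2 and Derl3 had a count of 0 in some tumor. After ETS 54 of the 106 were called in lean tumors (11 higher, 43 lower), which is 50.9% against 43.8% of all genes, and 45 in obese tumors (8 higher, 37 lower), 42.5% against 40.2%. The host comparison called 27 before therapy (21 higher in obese tumors, 6 lower), 25.5% against 26.4%, and 9 after ETS, all higher, 8.49% against 5.58%. The count after ETS was 2 without obese tumor 4 after ETS and 16 without obese tumor 2 after ETS. The difference of the effects called 7, or 6.6% against 16.4% of all genes. With both directions pooled, most of these shares lie close to those of all genes. That of the difference of the effects lies lower. The directions were less even than over all genes. After ETS 43 pathway genes were lower and 11 higher in the lean host, where 22.8% of all genes were lower and 21% higher. In the obese host 37 were lower and 8 higher, where 19% of all genes were lower and 21.2% higher. Before therapy 21 were higher in obese tumors and 6 lower, against 13.5% and 12.9% of all genes.

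Among 18 sensors and controllers of eIF2, 6 fell after ETS in lean tumors and none rose, and in obese tumors 7 fell and 1 rose, with list medians of -0.08 and -0.20. These are 33.3% and 44.4% of the list, against 43.8% and 40.2% of all genes. Eif2ak4 (GCN2, the kinase that senses uncharged tRNA) fell in both, by 0.54 ± 0.11 on the log2 scale in the lean host (adjusted p = 0.00104) and by 0.32 ± 0.11 in the obese host (adjusted p = 0.0262), the latter not without obese tumor 3 or 4 before therapy or 1 or 2 after ETS. Ppp1r15b, the constitutive partner of the eIF2 phosphatase, fell by 0.61 and 0.53, and Eif2s2, the beta subunit of eIF2, by 0.34 and 0.76, the lean fall not being called without lean tumor 1 or 2 before therapy or 1 or 2 after ETS. Impact, an inhibitor of GCN2, fell in lean tumors (-1.18 ± 0.33, adjusted p = 0.0103). Eif2ak1 (HRI, the heme-regulated kinase), Eif2ak3 (PERK), Ern1 (IRE1) and Atf6 did not pass the test in either host, with log2 fold changes between -0.13 and 0.28. Before therapy Eif2ak3 was higher in obese tumors by 0.45 ± 0.10 (adjusted p = 0.00393) and Ern1 by 0.49 ± 0.17 (adjusted p = 0.0424). The call of Ern1 was kept only in the fits without lean tumor 4 or obese tumor 2 before therapy, lean tumor 3 after ETS or obese tumor 2 or 4 after ETS. Ern1 was also higher there after ETS (0.72 ± 0.17, adjusted p = 0.0279), though not without obese tumor 4 (0.62, adjusted p = 0.101) or any lean tumor after ETS.

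Eif2ak2 (PKR, the eIF2 kinase that senses double-stranded RNA and is itself induced by interferon) went its own way. Lean tumors had 102 ± 15.5 CPM (SD, n = 4) before therapy and 62.9 ± 10.3 CPM after ETS, and obese tumors had 46.0 ± 6.49 and 68.6 ± 8.71 CPM. It fell in the lean host (-0.69 ± 0.14, adjusted p = 0.00142) and rose in the obese host (0.58 ± 0.14, adjusted p = 0.00539), with no overlap in either, and the difference of the effects was called (-1.27 ± 0.20, adjusted p = 0.000616). Before therapy it was lower in obese tumors by 1.15 on the log2 scale (adjusted p = 4.54e-05). A list of 14 interferon response genes moved the same way beside it. In lean tumors 8 fell, in obese tumors 11 rose (10 without obese tumor 4 after ETS), and 14 were lower in obese tumors before therapy. These are 57.1%, 78.6% and 100% of the list, against 43.8%, 40.2% and 26.4% of all genes. The sums of the 14 genes were 1567 to 2720 CPM and 432 to 557 in lean tumors before and after, and 124 to 188 and 364 to 524 in obese tumors. Their part in the level of Eif2ak2 was not tested.

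The 32 tested genes linked to ATF4 as its targets or partners fell in the majority in lean tumors. There 18 fell and 5 rose (median -0.56), and in obese tumors 14 fell and 2 rose (median -0.44). These are 71.9% and 50% of the list, against 43.8% and 40.2% of all genes. Without obese tumor 4 after ETS 20 fell and 5 rose in lean tumors, and 16 fell and 2 rose in obese tumors. In that fit these are 78.1% and 56.2% of the list, against 46.3% and 40.1% of all genes. In both hosts the falls took in enzymes of serine and one-carbon synthesis (Phgdh, Psat1, Psph, Shmt2, Mthfd2), of proline synthesis (Aldh18a1) and amino acid carriers (Slc1a4, Slc7a1, Slc38a2). Of these, the lean falls of Phgdh and Psph were lost without lean tumor 2 before therapy or 4 after ETS, and that of Phgdh also without lean tumor 1 before therapy. Slc7a11, the cystine carrier, had one of the largest changes, from 19.0 ± 1.68 to 4.22 ± 2.48 CPM in lean tumors (SD, n = 4; -2.17 ± 0.39, adjusted p = 0.000527) and from 31.3 ± 8.49 to 10.6 ± 5.37 CPM in obese tumors (-1.56 ± 0.38, adjusted p = 0.00453). Cth, which makes cysteine from cystathionine, fell by 1.19 ± 0.29 in lean and by 2.28 ± 0.30 in obese tumors on the log2 scale (adjusted p = 0.00432 and 8.06e-05). The genes that rose in lean tumors were Bbc3, Cbs, Map1lc3b, Sesn2 and Sqstm1, of which Map1lc3b and Sesn2 also rose in obese tumors. Bbc3 (PUMA) and Sesn2 are also known p53 targets.

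In 3 genes of this list the effects of ETS were called different between hosts. Bbc3 rose in lean tumors by 1.27 ± 0.23 and lay at 0.00 ± 0.23 in obese tumors (difference adjusted p = 0.0147), from 5.48 ± 1.14 CPM in lean and 14.4 ± 2.13 CPM in obese tumors before therapy. Slc1a5, a glutamine carrier, fell in lean tumors by 0.77 and was at -0.09 in obese tumors (difference -0.68 ± 0.17, adjusted p = 0.0126). Cebpb, a dimer partner of ATF4, fell in lean tumors by 2.05 ± 0.50 and was at 0.17 ± 0.48 in obese tumors (difference -2.21 ± 0.69, adjusted p = 0.0396), and without obese tumor 4 after ETS that difference was -1.30 (adjusted p = 0.0668). The call of Cebpb was kept only in the fits without lean tumor 3 or obese tumor 4 before therapy, lean tumor 3 after ETS or obese tumor 1, 2 or 3 after ETS. Before therapy 11 of the 32 genes were higher in obese tumors and 0 lower (median 0.42), or 34.4% against 26.4% of all genes. Among the 11 were Pck2, Pycr1 and Phgdh. These 3 were not called without lean tumor 4 or obese tumor 4 before therapy, nor without lean tumor 3, and Pck2 and Phgdh not without obese tumor 3, and Pck2 not without obese tumor 1. After ETS the count was 6 and 0, or 18.8% against 5.58% of all genes. Without obese tumor 4 it was 1 and 0, or 3.12% against 1.5%.

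The tRNA synthetase list of 22 genes holds enzymes that load tRNAs with amino acids and, beside them, the tRNA exporter Xpot. Its genes showed small changes in a narrow range. In lean tumors 14 fell and 2 rose (median -0.36), and in obese tumors 12 fell and 0 rose (median -0.32). These are 72.7% and 54.5% of the list, against 43.8% and 40.2% of all genes. Cars fell by 0.89 ± 0.15 and 0.84 ± 0.15 on the log2 scale (adjusted p = 0.000396 and 0.000749) and Yars by 0.60 and 0.47. Mars, the gene that overlaps Ddit3, fell by 0.58 ± 0.06 and 0.78 ± 0.06. Only Dars was called for the difference of the effects (0.52 ± 0.12, adjusted p = 0.00976), being at 149.6 ± 18.6 and 155 ± 5.71 CPM in lean tumors and falling from 182 ± 9.40 to 132 ± 10.8 CPM in obese tumors. Before therapy 3 were higher and 2 lower in obese tumors, or 22.7% against 26.4% of all genes. Each of these calls was lost in some of the fits with a tumor left out. After ETS none of the 22 passed the test, where 5.58% of all genes did.

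The 34 tested chaperones of the ER and genes of ER-associated degradation were called in both directions. In lean tumors 4 rose and 5 fell (median -0.13), and in obese tumors 5 rose and 4 fell (median -0.03), so that 26.5% were called in each against 43.8% and 40.2% of all genes. Ero1l, an oxidase that also responds to hypoxia, rose in lean tumors from 547 ± 157 to 1032 ± 121 CPM (0.92 ± 0.30, adjusted p = 0.0215) and was higher in obese tumors before therapy (1728 ± 495 CPM, adjusted p = 0.00102). Its rise was not called without lean tumor 2 or 3 before therapy. Only without obese tumor 4 after ETS was the difference of the effects called for Ero1l (1.18 ± 0.35, adjusted p = 0.0357). Its relative Ero1lb fell in lean tumors by 0.68 ± 0.22, but not without lean tumor 4 before therapy or 2 or 3 after ETS. Sil1, a nucleotide exchange factor of BiP, rose in both hosts, by 0.58 and 0.60 (adjusted p = 0.00177 and 0.00159). Sec31a, a coat protein of vesicles leaving the ER, rose in obese tumors (0.55 ± 0.10) and was at 0.04 ± 0.10 in lean tumors (difference -0.51 ± 0.14, adjusted p = 0.0192). Syvn1, a ubiquitin ligase of the ER, was at -0.23 and 0.29 (difference -0.52 ± 0.17, adjusted p = 0.0434), and without obese tumor 4 after ETS the difference was -0.43 (adjusted p = 0.0677). The call of Syvn1 was kept only in the fits without lean or obese tumor 1 before therapy, lean tumor 1 after ETS or obese tumor 2 or 3 after ETS. Without obese tumor 4 after ETS 10 of the 34 fell in each host, and 5 rose in lean and 4 in obese tumors, so that 44.1% and 41.2% were called, against 46.3% and 40.1% of all genes.

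**Figure D4:**
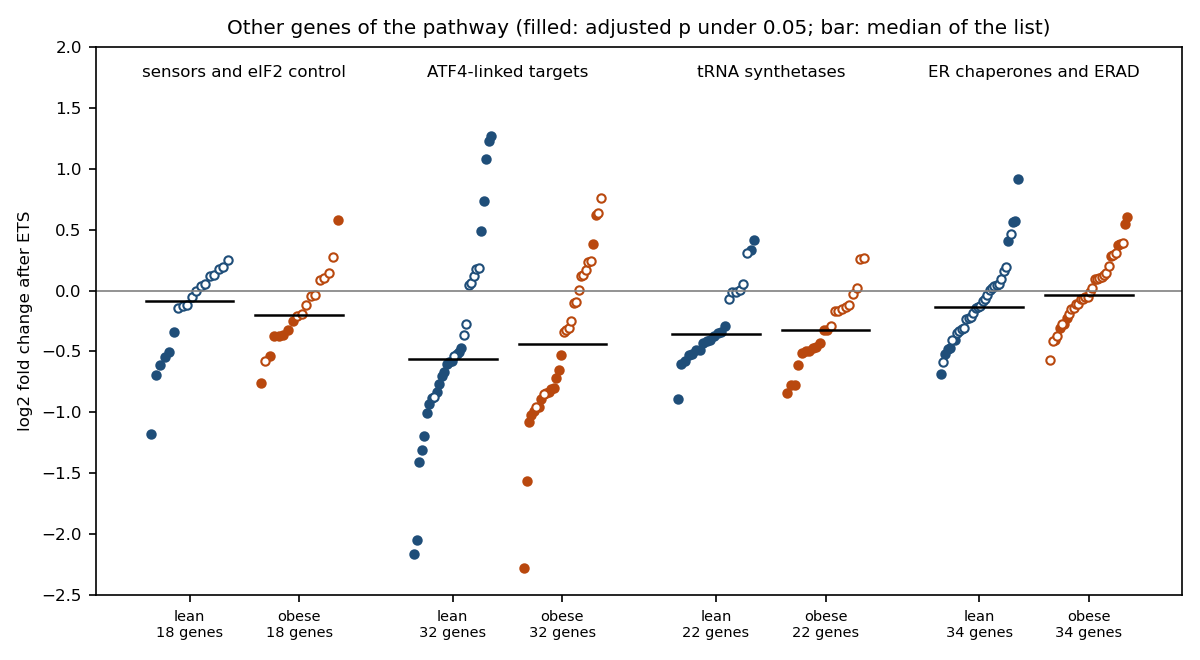
Log2 fold change after ETS (vertical axis) of each tested gene in 4 lists of the pathway, sorted within a list, in lean tumors (blue) and obese tumors (orange), filled where the adjusted p was under 0.05, with a bar at the list's median. The medians lie at -0.56 and -0.44 for the 32 ATF4-linked genes and at -0.13 and -0.03 for the 34 chaperone and degradation genes.

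Over the 16 tumors all 45 pairs of the 10 genes had a positive Pearson correlation of log2 CPM (median 0.78, lowest 0.41, highest 0.95). Once the mean of each group was taken out, all 45 were still positive (median 0.76). With obese tumor 4 after ETS left out, all 45 were positive over the 15 tumors (median 0.79, lowest 0.30, highest 0.97), but with the group means taken out 36 were (median 0.51), and the 9 that were not all included Hspa5 or Xbp1. The tumors share the 4 groups, so these values are a description. Among 13315 genes with a mean of at least 1 CPM, those most like Trib3 were Pck2 (r = 0.97) and Pycr1 (0.97), and those most like Chac1 were Trib3 (0.95) and Cars (0.95). Those most like Asns were Nars (0.98) and Aldh18a1 (0.97), and those most like Atf4 were Atf1 (0.96) and Cars (0.96). Hspa5 and Xbp1 both had Manf, a secreted ER stress protein, as the most alike gene (0.93 and 0.85), followed by Tpm4-ps and Herpud1 (0.91 and 0.84). Ddit4 was closest to Ankrd37 (0.98) and Gzf1 (0.95). For Ddit3 they were Arl13b and Rassf1 (both 0.95), for Atf3 Irs2 (0.96) and Kdelr2 (0.95), and for Ppp1r15a Angptl6 (0.95) and Rpl17 (0.94). Over the 15 tumors without obese tumor 4 after ETS, Atf3, Trib3, Chac1, Asns and Ddit4 had the same closest gene, whereas Manf went to 0.88 for Hspa5 and 0.79 for Xbp1, where Pmvk (0.94) and Ppp2r2d (0.89) were then closest.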

How the data were processed

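RNA of 16 B16F10 allograft tumors was sequenced with a stranded poly(A) kit and paired reads. The submitters' processing notes also name bcl2fastq 2.20.0 and Trimmomatic, and per the methods the authors aligned reads to mm10 with HISAT2 2.1.0 and quantified genes with StringTie 2.1.3b. The authors deposited counts per gene, whole numbers that were not normalized, with FPKM and TPM. The deposited TPM values served for levels between genes and for an alternative, and the 16 FPKM columns the authors deposited were not used. Groups and numbers came from the labels.

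As in the methods, 29568 genes were left out for having 0 counts in some tumor. Counts were scaled by TMM and tested with edgeR's quasi-likelihood test (edgeR 4.0.16, R 4.3.3) in a fit of all 16 tumors with a mean per group, in place of the exact test of the methods, so that the difference of the effects could be tested. Adjusted p-values are Benjamini-Hochberg values over 16209 genes and tests are two-sided. CPM are TMM-scaled. SE are standard errors of the log2 fold change, and intervals cover 95%. Each sample is labelled as a separate tumor. No pair within a group agreed within sampling noise, and within-group correlations were 0.970 to 0.992. Before use, the fit was checked on simulated counts with changes set in lean tumors after ETS. It called 27.3% of the 1.5-fold changes, 68.8% of the 2-fold and 92.1% of the 4-fold changes. A gene that did not pass the test can therefore still have changed by such small folds. Counting error was small beside the spread between tumors of a group (chi-square per degree of freedom at least 24.2).

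Genes named beside the 10 were the eIF2 kinases, Ern1 and Atf6. In each list, the 2 largest changes after ETS in lean and in obese tumors and in the difference of the effects were also named, among called genes with a mean of at least 1 CPM, as were the 2 genes most like each of the 10. Ppp1r15b, Slc1a5, the genes listed as rising or falling, and the mention of Vegfa, Car9 and Bnip3 were chosen after values were seen. The 10 genes and all lists were chosen with earlier results of these data known. Alternatives were DESeq2 1.42.0, its size factors, no exclusion of low counts, filterByExpr, the exact test on counts with 1 added, limma 3.58.1 on log2(TPM + 1), only the groups compared, the replicate number as a block, and each tumor left out. Coordinates and promoters are those of RefSeq for GRCm38.p6.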

Additional observations from a re-analysis of the deposited data

Results flagged for a closer look

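In obese tumor 4 after ETS, 5 of the 10 genes lay far above the other 3 tumors of the group by Dixon's test (gap to the nearest tumor over the range of the group). These were Ddit3 at 141.2 CPM (ratio 0.891), Trib3 at 165.8 CPM (0.895), Chac1 at 33.1 CPM (0.930), Ppp1r15a at 93.04 CPM (0.912) and Hspa5 at 2595 CPM (0.922). They are the 5 flags among 40 groups tested, and chance flags about 1 group in 20, but genes of the same tumor are not independent. The tumor had 55719878 counts, within the range of its group, and the lowest mean correlation with the rest of its group.

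The effect of ETS on Ddit4 differed between hosts by 1.51 on the log2 scale (lean minus obese, adjusted p = 0.0197 by edgeR's quasi-likelihood test), with 4 of 4 lean tumors higher after ETS than every lean tumor before therapy and 3 of 4 obese tumors lower than every obese tumor before therapy.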

How the results depend on the processing

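For the 10 genes, the direction and the call of most values were kept under the alternatives, and the number called moved more. In lean tumors 5 were called, against 3 without the exclusion of low counts, 8 with the exact test, 8 with only the groups compared, and 3 to 8 with a tumor left out. In obese tumors 3 were called, and 1 to 10 with a tumor left out. The difference called 1, against 0 on TPM and 1 to 2 with a tumor left out. Between hosts before therapy 3 were called, against 6 with the exact test and 1 to 5 with a tumor left out. After ETS 1 was called, against 0 without the exclusion, on TPM and with only the groups compared, 3 with the exact test and with DESeq2, and 0 to 4 with a tumor left out. Of the 106 pathway genes, 54 were called in lean tumors and 85 on TPM, and the difference called 7 and 14 on TPM. Before therapy 27 were called, and 11 to 31 with a tumor left out (15 and 14 without lean tumor 3 or 4, 12 and 11 without obese tumor 3 or 4 before therapy). After ETS 9 were called, against 3 without the exclusion, 0 with only the groups compared, 23 with DESeq2 and 1 to 16 with a tumor left out (4, 2, 3 and 1 without lean tumor 1, 2, 3 or 4 after ETS, 5 without lean tumor 4 before therapy, 16 and 2 without obese tumor 2 or 4 after ETS). The cause of these moves was not tested.

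None of the estimates that turned sign was called with all 16 tumors. The obese change of Atf3 was between -1.22 and 0.14 with a tumor left out (0.08 without obese tumor 4 before therapy, 0.09 and 0.14 without obese tumor 1 or 2 after ETS). That of Hspa5 was -0.26 on TPM and between -0.57 and 0.22 with a tumor left out, being -0.06 without obese tumor 3 before therapy and -0.57 without obese tumor 4 after ETS. With a tumor left out the difference of the effects lay between -0.41 and 0.41 for Atf4, -0.51 and 0.73 for Ddit3, -0.62 and 0.46 for Trib3 and -0.62 and 0.17 for Hspa5, and the host difference after ETS between -0.33 and 0.30 for Ddit4 and -0.0011 and 0.25 for Xbp1, each turned only without obese tumor 4 after ETS. The difference of Xbp1, at 0.0081, was -0.24 on TPM and between -0.083 and 0.16 with a tumor left out, being -0.063, -0.036, -0.083, -0.015, -0.033, -0.032, -0.074 and -0.074 in the 8 fits below 0.

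The labels do not say whether the replicate numbers pair the tumors, and the correlations below cannot settle it. Deviations of same-numbered tumors of 2 groups correlated at -0.046 to 0.45, above 0.1 in 7 of 16 comparisons, and 6 tumors correlated best with their own number. With the replicate block, Ddit3 was called in lean tumors (-1.09, adjusted p = 0.0321 by edgeR's quasi-likelihood test) and Ddit4 in obese tumors (-0.81, adjusted p = 0.00855), the obese change of Hspa5 was -0.075, the host difference of Ddit4 after ETS -0.0099, and 14 pathway genes were called between hosts after ETS.

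Where leaving out 1 tumor ended a call of one of the 10 genes or of a pathway gene named with its value, the tumors are given beside the gene. The fits of single pathway genes and of the marker and response lists with a tumor left out, and the correlations without obese tumor 4 after ETS, were chosen after seeing the data.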
